A study of Sus scrofa with 9 samples.

Results

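Transcripts of the fatty acid oxidation machinery were followed in a back muscle, longissimus dorsi, taken from 9 male finishing pigs on 3 lysine diets. The genes asked for were CPT1B, CPT2, ACADM, ACADL, ACADVL, HADHA, HADHB, HADH, ECHS1 and the co-activator PPARGC1A, and they were taken from the array through probe sets whose only gene symbol in the platform's probe-to-gene table is one of these names. Of these 10 genes 6 had a probe set under their symbol, CPT2, ACADM, ACADL, ECHS1, HADHA and HADH, each with 1 probe set, among 27558 probe sets and 12361 named genes in all. No probe set carries the symbol of CPT1B, ACADVL, HADHB or PPARGC1A in that table, in which 13878 probe sets are unnamed, and these 4 genes are not analysed here, so the values below say nothing of the carnitine palmitoyltransferase of the outer membrane, of the beta subunit of the trifunctional protein or of PGC-1 alpha.

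Starting from a body weight near 95 kg, the pigs spent 5 weeks before slaughter on a diet deficient in lysine (pigs 1, 2 and 3), a diet with excess lysine (pigs 9, 10 and 11) or a diet adequate in lysine (pigs 5, 6 and 7), with 1 whole-transcript array per pig. Breed and exact age are not given in the labels used here. Lysine is an essential amino acid, and the comparisons asked how transcripts of muscle differed with its supply.

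Long-chain fatty acids reach the mitochondrial matrix as carnitine esters, and CPT2 on the inner membrane turns these back into acyl-CoA. Beta-oxidation then shortens the chain in repeated rounds of dehydrogenation, hydration, a second dehydrogenation and thiolysis, and the acetyl-CoA released enters the citric acid cycle. In skeletal muscle this route supplies much of the energy at rest and is most developed in oxidative fibres, where PGC-1 alpha, with PPAR and ERR nuclear receptors, is known to promote transcription of its genes.

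The values are the authors' log2 expression values, and the log base is inferred from their range. Defining muscle transcripts were bright: ACTA1, skeletal actin, had a mean level above 99.7% of the probe sets and MYH7, the slow myosin heavy chain, above 99.6%. The 6 oxidation genes had mean levels between the 65.8th and the 98.2nd percentile of all probe sets, all above the median level of 5.07. One array, that of excess pig 11, was unlike the rest, with a correlation of 0.904 to 0.956 to each of them, against 0.977 to 0.992 between the other 8. Among the 4739 named genes whose mean level lay within the range of the oxidation genes, 6.01 to 11.12, that array deviated from the mean of the 9 arrays by a median of -0.40, against -0.0016 to 0.11 on the others. Where leaving out pig 11 turned the sign of a difference given below, moved it by over 1.5 times or took it across an unadjusted p of 0.05, the value without it stands beside it. In whole muscle, fewer cells of a type and less RNA per cell cannot be told apart.

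After Benjamini-Hochberg adjustment over all 27558 probe sets, limma placed no oxidation gene under the threshold of 0.05 in any comparison, and no other probe set either (0% called in each comparison and in the F test). The 6 genes were split between small positive and small negative differences. ECHS1, the hydratase of short chains, had the largest difference from adequate pigs among them, lower by 1.33-fold in deficient pigs and by 1.27-fold in excess pigs. The other 5 genes differed by at most 1.17-fold in the 3 comparisons, and in each of them the excess pigs alone spanned more than the deficient and adequate pigs together.

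**Figure D1:**
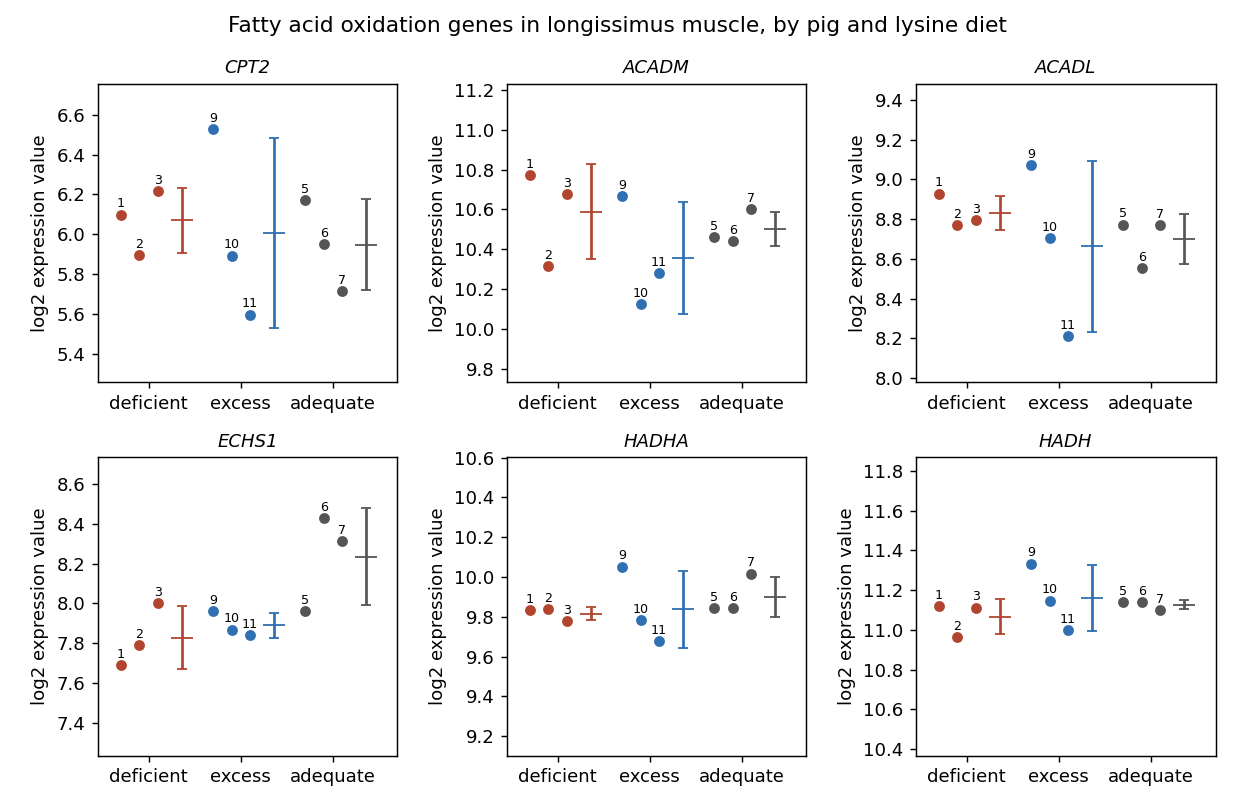
Log2 expression value of each of the 6 genes in each pig (points, numbered by pig), with the mean and SD of the 3 pigs of each diet beside them; every panel spans the same log2 range. ECHS1 is the gene in which adequate pigs 6 and 7, at 8.43 and 8.31, lay above all deficient and excess pigs. In CPT2, ACADL and HADHA excess pig 9 was the highest and excess pig 11 the lowest of all 9.

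CPT2, carnitine palmitoyltransferase 2, completes the carnitine shuttle. It measured 6.10, 5.89 and 6.22 on the log2 scale in the deficient pigs, 6.53, 5.89 and 5.60 in the excess pigs and 6.17, 5.95 and 5.71 in the adequate pigs. The 3 diets overlapped fully, and both the highest and the lowest of the 9 values were excess pigs, 9 and 11. Deficient minus adequate was 0.12 ± 0.24 (SE, n = 3 pigs per group), with a 95% confidence interval of -0.43 to 0.67, and excess minus adequate was 0.06 ± 0.24. Excess minus adequate read -0.20 without excess pig 9 and 0.26 without excess pig 11.

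The acyl-CoA dehydrogenases ACADM and ACADL carry out the first step of each round and pass their electrons to the electron transfer flavoprotein. ACADM, the medium-chain enzyme, measured 10.77, 10.32 and 10.68 in the deficient pigs, 10.67, 10.12 and 10.28 in the excess pigs and 10.46, 10.44 and 10.60 in the adequate pigs. Excess pigs 10 and 11 were the lowest of the 9, while excess pig 9 lay beside the highest deficient pigs. The largest difference was that between deficient and excess pigs, 0.23 ± 0.17 (1.17-fold, 95% confidence interval -0.15 to 0.62, limma adjusted p = 0.872). It read 0.39 without excess pig 9 and 0.19 without excess pig 11.

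ACADL, the long-chain enzyme, measured 8.93, 8.77 and 8.80 in the deficient pigs, 9.07, 8.70 and 8.21 in the excess pigs and 8.77, 8.55 and 8.77 in the adequate pigs. Here 2 of the 3 deficient pigs lay above every adequate pig, and the lowest deficient pig equalled adequate pig 7 and lay just below adequate pig 5. Deficient minus adequate was 0.13 ± 0.20 and excess minus adequate -0.04 ± 0.20. The second read -0.24 without excess pig 9, and its sign turned without excess pig 11, to 0.19.

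ECHS1, the short-chain enoyl-CoA hydratase, adds water across the double bond that the dehydrogenases leave, and also serves valine breakdown. It measured 7.69, 7.79 and 8.003 in the deficient pigs, 7.96, 7.87 and 7.84 in the excess pigs and 7.96, 8.43 and 8.31 in the adequate pigs. Adequate pigs 6 and 7 were above the other 7 pigs, whereas adequate pig 5 lay at the level of the other diets, below deficient pig 3 and equal to excess pig 9 to all 5 decimals of the table. Deficient minus adequate was -0.41 ± 0.13 (1.33-fold lower, 95% confidence interval -0.72 to -0.10, limma unadjusted p = 0.0167, adjusted p = 1.00). Excess minus adequate was -0.34 ± 0.13 (1.27-fold lower, 95% confidence interval -0.65 to -0.03, limma unadjusted p = 0.0339, adjusted p = 0.757).

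Both ECHS1 differences were measured against the same 3 adequate pigs, and deficient minus excess was -0.06 ± 0.13. ECHS1 was the 1 gene of the 6 under an unadjusted p of 0.05 in each of the comparisons with adequate pigs, where 1.85% of all probe sets were under it, in either direction, in deficient pigs and 3.56% in excess pigs. Without excess pig 11 the excess difference of ECHS1 was -0.32 with a limma unadjusted p = 0.078, so that none of the 6 was under 0.05 in that comparison, while the deficient difference kept a limma unadjusted p = 0.0223. In deficient against excess pigs none of the 6 was under it, where 4.08% of all probe sets were. The limma F test over the 3 diets gave ECHS1 an unadjusted p = 0.0347 and an adjusted p = 0.933, where 2.54% of all probe sets had an unadjusted p under 0.05. Leaving out adequate pig 5 gave differences of -0.54 in deficient and -0.48 in excess pigs, and leaving out adequate pig 6 gave -0.31 and -0.25. After quantile normalization was applied again, the excess difference was -0.20.

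HADHA is the alpha subunit of the trifunctional protein, which handles the later steps for long chains on the inner membrane. It measured 9.83, 9.84 and 9.78 in the deficient pigs, 10.05, 9.78 and 9.68 in the excess pigs and 9.84, 9.84 and 10.02 in the adequate pigs. All 3 deficient pigs lay below all 3 adequate pigs, but by the narrowest of margins, 9.838 in the highest deficient pig against 9.843 in the lowest adequate pigs. It was the 1 gene of the 6 without overlap between these diets, where 3.07% of all probe sets were lower without overlap and 6.84% had none in either direction. No oxidation gene was without overlap in excess against adequate or in deficient against excess pigs, where 7.03% and 6.47% of all probe sets were. Deficient minus adequate was -0.08 ± 0.10 (limma unadjusted p = 0.44). Excess minus adequate was -0.06 ± 0.10, or 0.02 without excess pig 11 and -0.17 without excess pig 9.

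HADH, the hydroxyacyl-CoA dehydrogenase of the matrix, takes the second dehydrogenation for medium and short chains. It measured 11.12, 10.96 and 11.11 in the deficient pigs, 11.33, 11.15 and 11.00 in the excess pigs and 11.14, 11.14 and 11.10 in the adequate pigs. The adequate pigs were the most alike, with an SD of 0.02, against 0.09 in the deficient and 0.17 in the excess pigs. The difference between deficient and excess pigs, -0.09 ± 0.09, had a 95% confidence interval of -0.31 to 0.12, and read -0.18 without excess pig 11 and -0.0085 without excess pig 9. Deficient minus adequate was -0.06 ± 0.09. HADH had the smallest standard error of the 6, and in the 3 comparisons its intervals reached no lower than -0.31 and no higher than 0.25.

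**Figure D2:**
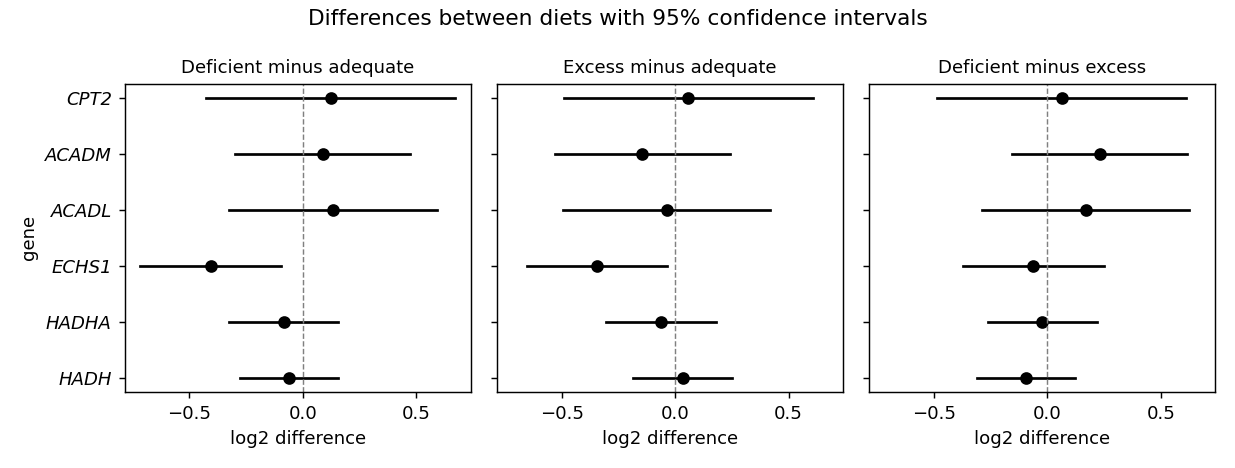
Log2 difference of each gene in the 3 comparisons (points) with its 95% confidence interval from limma (lines); the dashed line marks no difference. Only the intervals of ECHS1 against adequate pigs, -0.72 to -0.10 and -0.65 to -0.03, leave out 0, before any adjustment for the number of probe sets.

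Counted together, 3 of the 6 genes were higher and 3 lower in deficient than in adequate pigs, with a median difference of 0.01, where 47% of all probe sets and 48.3% of named genes were lower and the median of all probe sets was 0.01. In excess against adequate pigs 4 were lower and 2 higher, and their median was -0.05, where 49.8% of all probe sets and 54.5% of named genes were lower and the median of all probe sets was 0.001. This median was -0.22 without excess pig 9 and 0.06 without excess pig 11. In deficient against excess pigs 3 lay on either side of 0, and their median was 0.02, where 50% of all probe sets and 46.1% of named genes were lower, and the median was 0.21 without excess pig 9 and -0.09 without excess pig 11. Beside these differences the standard errors of the 6 genes ran from 0.09 to 0.24, against a median of 0.13 over all probe sets.

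In the 5 genes other than ECHS1 the pigs of the excess group differed more among themselves than the diet means did, whereas in ECHS1 the excess pigs were the most alike, with an SD of 0.063. The median SD of the 6 genes was 0.12 in deficient, 0.24 in excess and 0.11 in adequate pigs, and that of all named genes was 0.12, 0.21 and 0.10, so the wider spread of the excess pigs was shared by the rest of the array. Within the excess group, all 6 genes were highest in pig 9 and 5 of 6 were lowest in pig 11, the exception being ACADM, which was lowest in pig 10. Among the 4739 named genes at like levels, 65.7% were highest in pig 9 and 83.7% lowest in pig 11. Set against the mean of excess pigs 9 and 10, excess pig 11 had a median difference of -0.24 over the 6 genes and of -0.44 over those 4739 genes. Excess pig 9, set against the mean of excess pigs 10 and 11, had median differences of 0.39 and 0.32. Why the oxidation genes were low or high on these arrays was not tested.

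**Figure D3:**
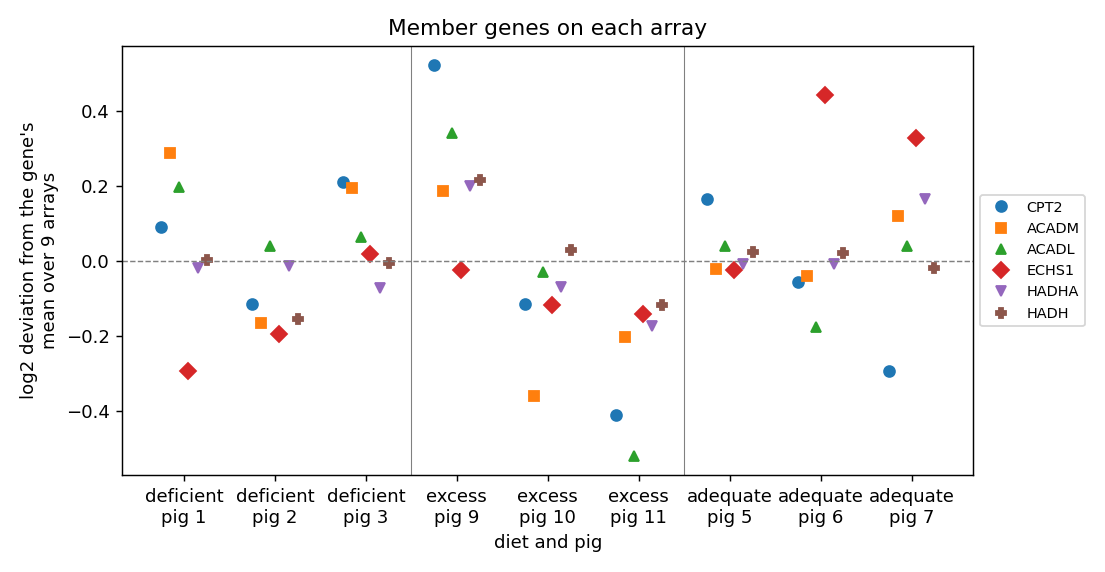
Deviation of each of the 6 genes from its own mean over the 9 arrays, by pig, on the log2 scale. On the array of excess pig 9, 5 genes lie above 0 and ECHS1 at -0.02, and on that of excess pig 11 all 6 lie below 0, between -0.52 and -0.12.

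Across the 9 pigs, the 10 pairs among the 5 genes other than ECHS1 had Pearson's r from 0.42 to 0.78, while the 5 pairs with ECHS1 gave -0.13 to 0.38. None of the 15 pairs passed an adjusted p of 0.05 by an exact two-sided permutation test over the 9 pigs with Benjamini-Hochberg adjustment. By Pearson's r the closest pair was CPT2 and ACADL (r = 0.78, exact permutation p = 0.0153, adjusted p = 0.129), with a Spearman's rho of 0.82 (exact permutation p = 0.00928, adjusted p = 0.0696). Without the pigs farthest from the median of CPT2, excess pigs 9 and 11, its r was 0.31. The rho of this pair was not computed without them. By rank the closest pair was ACADM and ACADL (rho = 0.83, exact permutation p = 0.00829, adjusted p = 0.0696; r = 0.61, exact permutation p = 0.0766, adjusted p = 0.219), and its r was 0.73 without deficient pig 1 and excess pig 10, the farthest from the median of ACADM. With diet means removed, the 10 pairs without ECHS1 gave r from 0.55 to 0.92, and without excess pig 11 from 0.21 to 0.72. With the 2 pigs farthest from the median of each pair's first-named gene left out, they gave -0.67 to 0.73. These pigs were excess pigs 9 and 11 in 6 of the 10 pairs, those with CPT2 or ACADL named first. Without them r was -0.67 for CPT2 and HADHA, -0.19 for ACADL and HADH and 0.02 for ACADL and HADHA. It was 0.29 to 0.38 for the other pairs of these 6. The pigs left out thus depended on the order of naming, and the farthest pigs of the second gene were not left out.

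Of 15 measured genes of the carnitine shuttle and of fatty acid uptake and activation, none passed the adjusted threshold. In deficient against adequate pigs 7 were lower and 8 higher, and their median was 0.01. ACSL3, an acyl-CoA synthetase, measured 8.12, 8.35 and 8.22 in deficient pigs, against 7.77, 7.98 and 7.99 in adequate pigs, without overlap (difference 0.32 ± 0.15, limma unadjusted p = 0.0752, and 0.0118 without excess pig 11), where 3.77% of all probe sets were higher without overlap. SLC25A20, the carnitine carrier of the inner membrane, differed by 0.16 ± 0.25, CPT1A, the liver-type outer membrane transferase, by -0.07 ± 0.21 and CD36, the fatty acid receptor of the cell surface, by 0.01 ± 0.12.

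In excess against adequate pigs 12 of these 15 genes were lower with a median of -0.09, but 6 of 15 without excess pig 11, with a median of 0.045. The carnitine importer SLC22A5 measured 5.17, 5.04 and 4.82 in excess pigs, against 5.34, 5.37 and 5.46 in adequate pigs. All 3 excess pigs lay below all 3 adequate pigs, where 3.84% of all probe sets did so. The difference was -0.39 ± 0.12 (limma unadjusted p = 0.0138, adjusted p = 0.757), and -0.29 without excess pig 11. Its levels are near the median of all probe sets, 5.07, and signal over background was not tested. CROT, the peroxisomal carnitine octanoyltransferase, also had no overlap between these diets, with a difference of -0.20 ± 0.10, or -0.12 without that pig. In deficient against excess pigs 11 of the 15 were higher, and 8 without excess pig 11. CROT (0.28 ± 0.10, limma unadjusted p = 0.0242) and ACSL4 (0.56 ± 0.23, limma unadjusted p = 0.0396) were higher without overlap. Of all probe sets 4.28% were higher without overlap and 4.08% had an unadjusted p under 0.05. Without excess pig 11 CROT differed by 0.21 (limma unadjusted p = 0.0672) and ACSL4 by 0.32 (limma unadjusted p = 0.0993).

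The other genes of mitochondrial beta-oxidation, 12 measured, showed no member past the adjusted threshold either. In deficient against adequate pigs 7 were lower and 5 higher, and their median was -0.02. ACADS, the short-chain dehydrogenase, differed by -0.02 ± 0.21, ETFDH, which hands electrons from the flavoprotein to ubiquinone, by 0.04 ± 0.18, and ACAA2, the matrix thiolase, by -0.12 ± 0.14. In excess against adequate pigs 10 of 12 were lower, but 5 of 12 without excess pig 11. ACAD11, an acyl-CoA dehydrogenase of longer chains, measured 6.97, 7.07 and 6.51 in excess pigs, against 7.42, 7.39 and 7.17 in adequate pigs (difference -0.48 ± 0.18, limma unadjusted p = 0.0283). Without excess pig 11 it was -0.31 (limma unadjusted p = 0.08). The other probe set of ACAD11 differed by -0.43 ± 0.19, and its value without that pig is not given here. In deficient against excess pigs 4 of the 12 mitochondrial genes were lower, but 8 without excess pig 11. ACAA2 then differed by -0.30 (limma unadjusted p = 0.0119), against -0.15 ± 0.14 with that pig. It was the 1 gene of the 12 under 0.05 there without that pig, where 1023 of 27558 probe sets were. Of 13 peroxisomal genes none had an unadjusted p under 0.05 in limma in any comparison.

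No probe set carries the symbol PPARGC1A, and its relative PPARGC1B, also a co-activator of mitochondrial genes, was dim. PPARGC1B measured 4.89, 4.90 and 4.98 in deficient pigs, 5.38, 4.69 and 4.89 in excess pigs and 4.93, 4.91 and 4.84 in adequate pigs, below the median level of 5.07 in all but excess pig 9. Of 28 measured regulators around PGC-1, PPAR and ERR, 14 were lower and 14 higher in deficient against adequate pigs, with a median of 0.00. In excess against adequate pigs 23 of 28 were lower with a median of -0.13, where 54.5% of named genes were lower with a median of -0.02, and without excess pig 11 14 of 28 were lower.

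Among these regulators PPARA, the nuclear receptor that senses fatty acids, measured 7.27, 6.96 and 7.56 in deficient pigs, 7.60, 7.53 and 6.61 in excess pigs and 7.84, 7.79 and 7.50 in adequate pigs. Adequate pigs 5 and 6 were the highest of the 9, and adequate pig 7 lay within the range of the other diets. Deficient minus adequate was -0.45 ± 0.28 (limma unadjusted p = 0.146, and 0.0293 without excess pig 11). RXRA, the partner of the PPARs on DNA, differed by -0.51 ± 0.24 in excess against adequate pigs and by -0.30 without excess pig 11. ESRRA, the estrogen-related receptor alpha, differed by -0.15 ± 0.19 in deficient and -0.07 ± 0.19 in excess pigs against adequate pigs. Without excess pig 11 the excess difference of ESRRA was 0.17, and deficient minus excess was -0.32 (limma unadjusted p = 0.0191), against -0.09 ± 0.19 with that pig. PRKAG1, also without that pig, gave a deficient minus excess difference of -0.34 (limma unadjusted p = 0.0015). Its excess minus adequate difference was then 0.24 (limma unadjusted p = 0.0084). These were the 2 of 28 regulators under 0.05 in deficient against excess pigs without that pig, where 1023 of 27558 probe sets were.

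**Figure D4:**
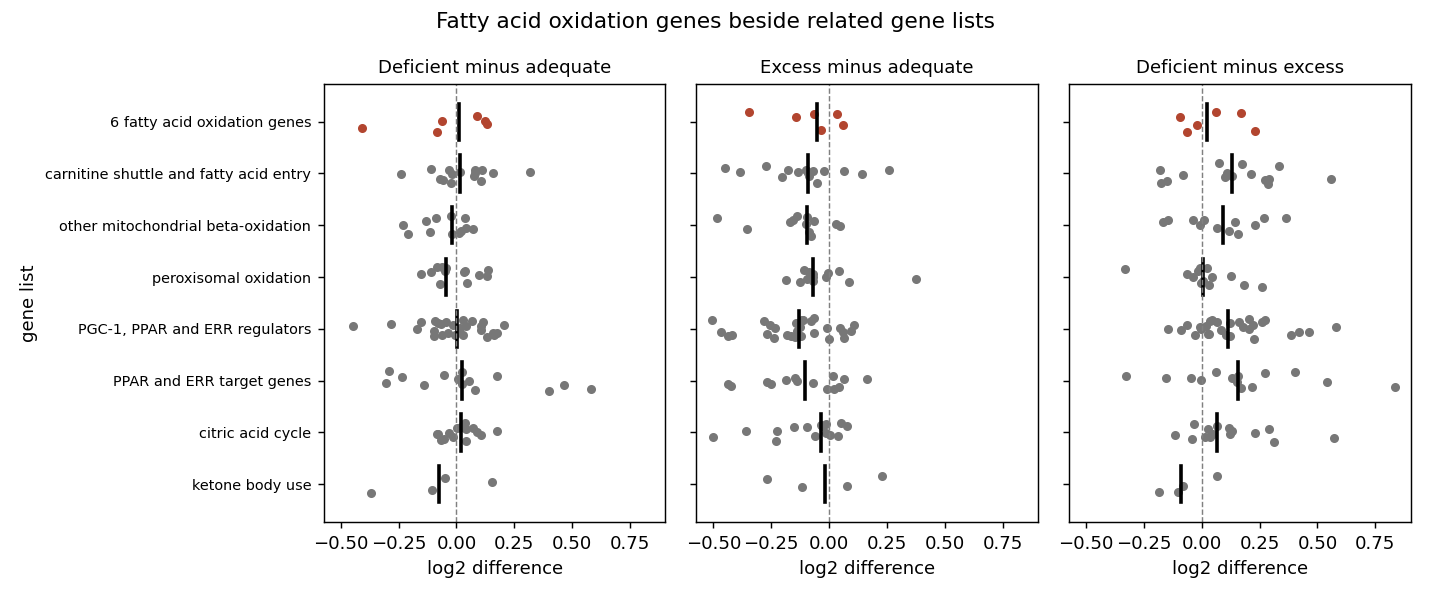
Log2 difference of every measured gene (points, 1 probe set per gene) in the 6 fatty acid oxidation genes and in 7 related gene lists, for the 3 comparisons, with the median of each list as a bar. In the middle panel the medians of all lists lie below 0, between -0.13 and -0.02; this is the comparison in which leaving out excess pig 11 turned the median of the 6 oxidation genes to 0.06.

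Of 14 measured targets of PPAR and ERR receptors, none passed the adjusted threshold or an unadjusted p of 0.05 in limma. Without excess pig 11, SLC25A34, a mitochondrial carrier, was lower in deficient than in excess pigs by a difference of -0.42 (limma unadjusted p = 0.0285), against -0.33 ± 0.15 with that pig. PDK4, the kinase that shuts pyruvate dehydrogenase when fat is burned, measured 12.07, 12.30 and 11.34 in deficient pigs, 12.29, 12.17 and 11.26 in excess pigs and 12.55, 10.71 and 12.88 in adequate pigs. Its lowest and its highest value were both adequate pigs, 6 and 7, and the diet differences of -0.14 ± 0.58 in deficient and -0.14 ± 0.58 in excess pigs were small beside that span. Without excess pig 11 the excess difference of PDK4 was 0.19. UCP3, an uncoupling protein of muscle mitochondria, measured 8.37, 9.12 and 8.46 in deficient pigs, 8.10, 8.60 and 6.73 in excess pigs and 8.47, 7.63 and 8.64 in adequate pigs. Adequate pig 6 was the lowest adequate pig for UCP3 as for PDK4. ANGPTL4, an inhibitor of lipoprotein lipase, differed by 0.47 ± 0.37 in deficient and 0.07 ± 0.37 in excess against adequate pigs (0.35 without excess pig 11).

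Downstream, 15 citric acid cycle genes gave 9 higher and 6 lower in deficient against adequate pigs, with a median of 0.02, and 4 higher and 11 lower in excess against adequate pigs, with a median of -0.03 (5 lower and a median of 0.08 without excess pig 11). PC, pyruvate carboxylase, which refills the cycle, measured 6.65, 7.16 and 6.74 in deficient pigs, against 6.45, 6.59 and 5.79 in excess pigs, without overlap, where 4.28% of all probe sets were higher without overlap. The difference was 0.57 ± 0.23 (limma unadjusted p = 0.0384, adjusted p = 0.872), and 0.33 without excess pig 11 (limma unadjusted p = 0.101). The 4 measured genes of ketone body use gave none under an unadjusted p of 0.05 in limma with all 9 arrays. Without excess pig 11, OXCT1, which activates ketone bodies for oxidation, differed by -0.29 in deficient against excess pigs (limma unadjusted p = 0.0063) and by 0.19 in excess against adequate pigs (limma unadjusted p = 0.0416), against -0.18 ± 0.10 and 0.08 ± 0.10 with that pig.

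Fibre and cell type markers moved in part with these comparisons. All 7 measured slow fibre genes were higher in excess than in adequate pigs, with a median of 0.28 (0.29 without excess pig 11) and mean levels per pig of 11.71 to 12.01, against 11.45 to 11.71 in adequate pigs. Of these genes 3 had a limma unadjusted p under 0.05 (2 without excess pig 11), where 3.56% of all probe sets did. Without overlap were 3 of the 7, where 7.03% of all probe sets were, in either direction. Of the oxidation genes 2 of 6 were higher in that comparison, and 4 of 6 without excess pig 11. In deficient pigs 4 of the 7 slow fibre genes were higher than in adequate pigs and 3 lower, with a median of 0.06. There 1 of the 7 had a limma unadjusted p under 0.05, where 1.85% of all probe sets did. Against excess pigs 6 of the 7 were lower in deficient pigs, with a median of -0.22 (-0.23 without excess pig 11). Of these 3 had a limma unadjusted p under 0.05, and 2 without that pig, where 4.08% of all probe sets were under it with all 9 arrays. The 2 were CSRP3 (-2.30, limma unadjusted p = 0.0392) and MYL2 (-0.32, limma unadjusted p = 0.0345). CSRP3 was already known from earlier results of these data to be lowest in deficient pigs, so its place in these counts is no separate support. All 7 fast fibre genes were lower in deficient than in adequate pigs, with a median of -0.10, and 6 of 7 in excess pigs, with a median of -0.04. Among them PVALB, a calcium buffer of fast fibres, differed by -0.52 ± 0.17 in deficient pigs (limma unadjusted p = 0.0169). All 14 fibroblast and matrix markers were lower in deficient and in excess than in adequate pigs, with medians of -0.38 in deficient and -0.41 in excess pigs (-0.27 without excess pig 11), the direction in which ECHS1 differed. Their mean level per pig ran from 8.83 to 9.26 in deficient pigs and from 8.66 to 9.22 in excess pigs, against 9.31 to 9.74 in adequate pigs. ECHS1 was highest in adequate pigs 6 and 7, whereas the matrix markers were highest in adequate pig 5. Of 6 smooth muscle and pericyte markers 5 were lower in deficient and 5 in excess than in adequate pigs, also the direction of ECHS1, with medians of -0.28 in deficient and -0.31 in excess pigs. Of 7 immune markers 5 were lower in deficient and 5 in excess pigs. Their medians were -0.10 in deficient and -0.03 in excess pigs (4 lower and -0.008 without excess pig 11). Most fast fibre and immune markers thus also lay in the direction of ECHS1. The endothelial and red blood cell markers did not do so in both comparisons. Of 7 endothelial markers 3 were lower in deficient and 4 in excess than in adequate pigs, with medians of 0.04 and -0.06. Of 4 red blood cell markers, which were dim, 1 was lower in deficient and 0 in excess pigs (1 without excess pig 11), with medians of 0.01 and 0.01. Of 12 adipocyte markers 9 were higher in deficient and 9 lower in excess than in adequate pigs, with medians of 0.07 in deficient and -0.21 in excess pigs (8 lower and -0.14 without excess pig 11). The part of these markers in the values of the oxidation genes was not tested.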

How the data were processed

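Sense-strand cDNA made from total RNA of frozen longissimus muscle was hybridised to whole-transcript arrays, 1 per pig, per the labels' protocols. The authors deposited 1 table of processed values, read here as log2 from their range of 3.097 to 14.303. The submitters' processing notes name GCOS 1.2 and Partek, with no role. How the values were background-corrected, summarized and normalized, and the genome build, is not given in the sources at hand, so no coordinates are printed. In the platform annotation 13323 probe sets carried 1 symbol and 357 several, and the other 13878 are unnamed here. Symbols were updated through the pig RefSeq gene table, which changed 7.

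All 9 arrays and all probe sets entered 1 limma 3.58.1 fit in R 4.3.3 (lmFit, eBayes) with a mean for each diet, two-sided tests and Benjamini-Hochberg adjustment over all probe sets. Related lists used the probe set with the highest mean per gene. The fit was tested on simulated data. The labels number the pigs separately, and 3 per diet limit the precision. The oxidation genes and lists were chosen with earlier results of these data known. Named from the related lists were up to 3 genes per comparison with the smallest unadjusted p and a set of key genes; from the marker lists, defining markers; and the 5 genes most like the mean of the oxidation genes. PPARGC1B was added after its values were seen. Also tried were a repeated quantile normalization, centring on array medians, the 6 arrays compared alone, an intensity trend, array quality weights, the SD of each array as covariate, a filter on dim probe sets, the mean over a gene's probe sets, and leaving out each pig.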

Additional observations from a re-analysis of the deposited data

How the results depend on the processing

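No paired analysis was possible because the pig numbers of the labels do not repeat between diets. Under 8 alternatives and with each pig left out, no oxidation gene had a limma adjusted p under 0.05. With array quality weights, whose fit stopped before it converged, 1 probe set passed in deficient against adequate pigs (limma adjusted p = 0.0123) and 1 in the F test (limma adjusted p = 0.0358), against 0 otherwise. ECHS1 stayed lower against adequate pigs under all of these. Other genes, none of them called, changed sign. In excess against adequate pigs ACADL read 0.0925 and HADHA 0.0205 after quantile normalization was applied again, 0.146 and 0.0344 with array weights, and 0.206 and 0.0219 with the array SD as covariate, and HADH read -0.0233 after median centring. In deficient against excess pigs HADHA read 0.0291 after median centring, CPT2 -0.208 and ACADL -0.00466 with array weights, and CPT2 -0.191 and ACADL -0.0256 with the covariate. With each pig left out in turn, deficient minus adequate ran from -0.00458 to 0.223 for ACADM. Excess minus adequate ran from -0.203 to 0.264 for CPT2, -0.242 to 0.188 for ACADL, -0.170 to 0.0160 for HADHA and -0.0528 to 0.114 for HADH, with a median over the 6 genes from -0.222 to 0.0649. Deficient minus excess ran from -0.141 to 0.326 for CPT2, -0.0561 to 0.374 for ACADL, -0.101 to 0.0856 for HADHA and -0.150 to 0.00624 for ECHS1, with a median from -0.0937 to 0.206. The causes were not tested. The list counts and the values of related genes without excess pig 11 were chosen after seeing the data. The lists were not recounted without excess pig 9. The numbers of probe sets with an unadjusted p under 0.05, and so the shares set beside the oxidation genes, were unstable. In deficient against adequate pigs they were 511, with 346 to 2207 under the alternatives, the highest with array weights. In excess against adequate pigs they were 981, with 272 (array weights) to 4638 (without excess pig 9), and in deficient against excess pigs 1124, with 456 (array weights) to 3969 (without excess pig 9). Signal over background was not tested.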

Other observations

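The genes whose levels followed the mean of the 6 oxidation genes most closely over the 9 pigs were, among 6828 named genes at or above the median level, SRCAP, PRKCE, DOCK9, UTP6 and HGSNAT. Their Pearson's r ran from 0.954 to 0.975 over 9 arrays and from 0.910 to 0.952 over the 8 arrays without excess pig 11, as a description only, since they were picked as the highest. All 5 were highest in excess pig 9 and lowest in excess pig 11. SRCAP, a chromatin remodelling ATPase, measured 8.58, 8.01 and 7.73 in excess pigs 9, 10 and 11, against 8.37, 8.24 and 8.24 in the adequate pigs.

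Exactly equal values on different arrays, as seen for ECHS1 in excess pig 9 and adequate pig 5 and for HADHA in adequate pigs 5 and 6, were common in the table. Between 933 and 1330 of the 27558 probe sets had identical values in each pair of the other 8 arrays, and between 448 and 526 in each pair with excess pig 11.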
